A study of Mus musculus with 8 samples.

Results

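Collagens are a family of 3-stranded matrix proteins, and their transcripts were measured here in sorted lymphatic endothelial cells of mouse ear skin. Members were taken by name: a probe set belonged if it named exactly 1 gene in GEO's platform annotation and that gene's symbol was Col, a type number, a and a chain number. The rule used no measured value. It found 42 genes, measured by 82 probe sets, of 18193 genes that the 45101 probe sets of the array name in this way. They were read as basement membrane types (4, 8, 15 and 18), fibrillar types (1, 2, 3, 5 and 11), the beaded type 6 and all remaining types.

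All mice were female FVB, with no genetic change given in the labels. In the inflamed group, 2% oxazolone was put on the abdomen and paws, the ears were challenged 5 days later with 10 µl of 1% oxazolone per side, and they were taken 24 hours after the challenge, a contact hypersensitivity (CHS) model. The labels describe both groups as healthy, 1 of them untreated and the other CHS inflamed. Each group held 4 samples, each pooled from 3 mice, at 9, 8, 8 and 10 weeks of age for replicates 1 to 4 in both groups. The cells were sorted as positive for CD31 and podoplanin and negative for CD45, and an untreated and an inflamed sample of the same number were read as a pair sorted and extracted on 1 day. The 4 pairs had been chosen by the quality of their extracted and amplified material.

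Each collagen chain carries long stretches in which glycine recurs at a fixed spacing, and 3 chains wind into a helix. Fibrillar collagens assemble into the cross-banded fibres of dermis, tendon and cartilage and in skin are made mainly by fibroblasts. Type 4 collagens form the sheet-like network of basement membranes, built mostly from the chains of Col4a1 and Col4a2, while Col4a3 to Col4a6 make networks restricted to particular tissues. The types 15 and 18 are proteoglycans of the basement membrane zone, and cleavage of type 18 releases endostatin. Type 6 collagen forms beaded filaments near basement membranes from the chains of Col6a1, Col6a2 and Col6a3. Initial lymphatic vessels are known for a thin and discontinuous basement membrane.

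Values are MAS5 signals on the log2 scale. A change is the mean of inflamed minus untreated samples over the 4 pairs, given with the moderated standard error (SE) of limma, and adjusted p-values are Benjamini-Hochberg values over all genes tested in that fit. A gene passed the test at an adjusted p under 0.05. A background ceiling was set per array from bacterial control probe sets and lay between 2.53 and 3.31. Probe sets with a mean under 3.30 were left out of the test, and of the rest the one with the highest mean stood for its gene. Of the 42 collagen genes, 31 passed that filter and were tested: 7 of 10 basement membrane, 9 of 9 fibrillar, 3 of 5 beaded and 12 of 18 other genes. Of the 11 that were not tested, Col24a1 was above the ceiling on 0 of 8 arrays. Col6a4, Col19a1 and Col26a1 were so by their brightest probe set, and another probe set of each was above it on 1 of 4 inflamed arrays.

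Among the 10843 genes tested, 3.91% were called higher and 3.02% lower in inflamed samples. Lymphatic markers were bright on every array: the mean of the 8 tested ones lay between 11.23 and 11.71 in untreated and between 10.28 and 11.46 in inflamed samples. Pecam1, which encodes CD31, was at 10.50 ± 0.10 in untreated and 9.78 ± 0.85 in inflamed samples (SD, n = 4), Pdpn at 11.44 ± 0.44 and 12.00 ± 0.36, Lyve1 at 12.14 ± 0.26 and 11.96 ± 0.31, and Prox1 at 11.17 ± 0.18 and 9.73 ± 1.38. Of these 4 genes none passed the test, while the lymphatic markers Mmrn1 (-1.20 ± 0.15, adjusted p = 0.00216) and Reln (-0.91 ± 0.20, adjusted p = 0.0298) were called lower, and the mean of the list was lower in 3 of 4 pairs. Ptprc, which encodes CD45, was above the ceiling on 0 of 4 untreated and 3 of 4 inflamed arrays by its brightest probe set, and on 2 and 3 by any of them. The 9 tested fibroblast markers other than collagens had means of 6.43 to 8.91 in untreated and 7.34 to 8.85 in inflamed samples. The 9 tested chondrocyte markers had means of 7.02 to 9.48 and 6.09 to 9.22. Of 8 listed neutrophil markers, 6 were on the array and 2 were tested, S100a8 and S100a9. Their mean was 0.10 to 3.05 in untreated and 8.19 to 9.50 in inflamed samples, and both were called higher. Each was above the ceiling on 1 of 4 untreated arrays and passed the filter through its inflamed signals. Means of the untested Csf3r, Cxcr2, Il1r2 and Mmp8 were 1.44, 0.55, 2.01 and 2.54 against 3.41, 3.29, 3.35 and 2.01. Monocyte markers stood at 3.07 to 5.32 and 5.46 to 7.39 (6 tested, 0 called). Pericyte markers stood at 4.89 to 8.89 and 5.02 to 6.26 (4 tested, 0 called). Whether RNA of these cells had a part in the collagen values was not tested. The log2 ratio of the 3' to the 5' control probe sets of Gapdh was lower in the inflamed sample of all 4 pairs (mean 3.06 against 3.85), and that of beta-actin in 2 of 4. In sorted pools, fewer cells of a type and less RNA per cell cannot be told apart.

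Of the 31 collagen genes tested, 4 rose and 1 fell. The 3 common type 6 chains rose by 3.43- to 3.96-fold and Col4a1 by 2.73-fold, while Col18a1 fell 3.08-fold. These are 12.9% higher and 3.23% lower, beside 3.91% and 3.02% of all genes, and 16.1% in either direction beside 6.94%. The median change over the 31 genes was 0.24, beside -0.09 over all genes tested, and 20 were positive and 11 negative. The direction was the same in all 4 pairs for 11 of the 31, beside 29.1% of all genes. No fibrillar gene and none of the 12 tested genes of the other types passed. Without the intensity trend in limma's variance model, 0 of the 31 passed (adjusted p = 0.107 to 0.163 for the 5), where 0.867% and 0.433% of all genes were still called higher and lower.

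**Figure D1:**
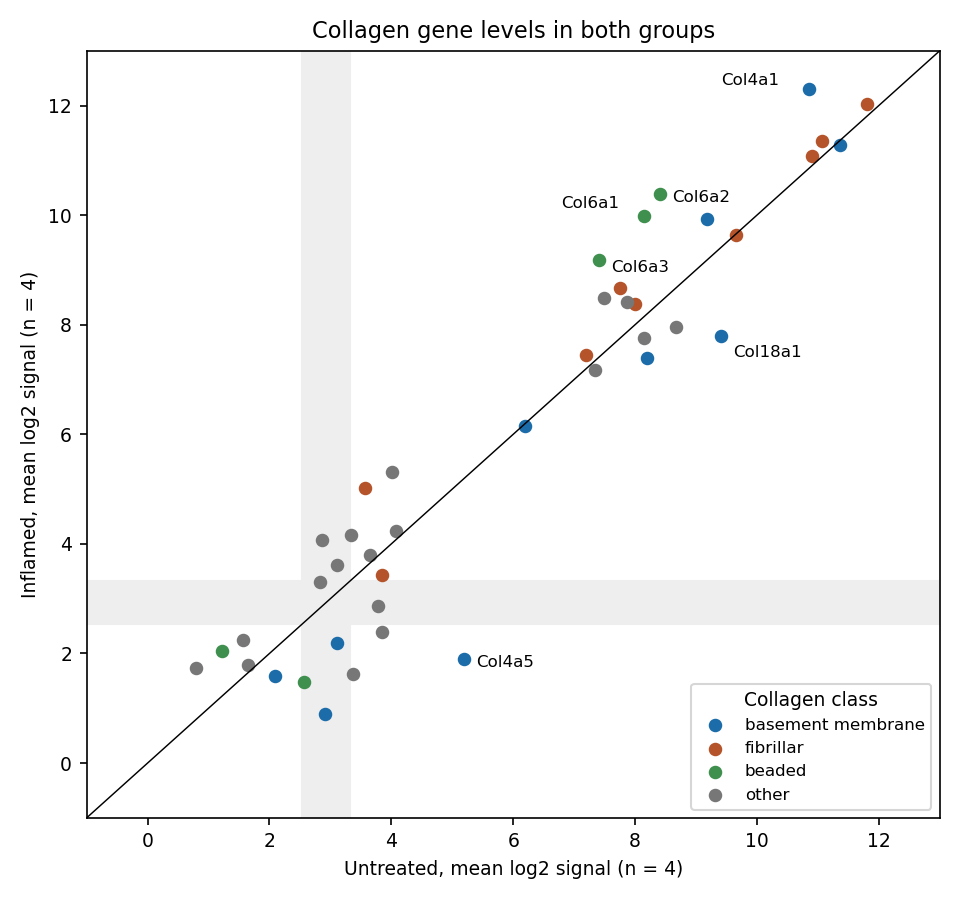
Mean log2 signal of each of the 42 collagen genes in untreated samples (horizontal axis) against inflamed samples (vertical axis), n = 4 each, coloured by class, with the range of background ceilings in grey and the line of equal levels. The 3 labelled beaded genes and Col4a1 lie above the line and Col18a1 below it. Col4a5 lies above the grey band in untreated and below it in inflamed samples, and a cluster of basement membrane and other genes lies near or under background in both.

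Basement membrane collagens split between chains. Col4a1 was higher and Col18a1 lower in every pair, Col4a5 went to background in inflamed samples by 1 of its 2 probe sets, and Col8a1, Col8a2 and Col15a1 did not pass.

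Col4a1, a main chain of the type 4 network, had log2 signals of 9.81, 11.36, 11.27 and 10.96 in untreated replicates 1 to 4 and 11.71, 12.58, 12.35 and 12.56 in the inflamed ones. The lowest inflamed value lay above the highest untreated one. Groups that did not overlap, in either direction, were found for 1 of the 31 collagen genes and for 13.1% of all genes. The change was 1.45 ± 0.16 (SE; adjusted p = 0.00122), with pair differences from 1.08 to 1.89. A second probe set for Col4a1 went from 7.50, 8.84, 9.43 and 9.43 to 9.06, 9.98, 10.36 and 9.36. It was higher in 3 of 4 pairs by 0.89 ± 0.32 and did not pass when every filtered probe set was tested by itself (adjusted p = 0.142).

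Col4a2, its partner in the same network, had 8.31, 8.89, 8.39 and 11.14 in the untreated and 9.50, 10.35, 10.19 and 9.70 in the inflamed group. It was higher in pairs 1 to 3 and lower in pair 4, where the untreated value stood above all others. The change of 0.75 ± 0.48 did not pass (adjusted p = 0.414), and its 95% interval of -0.33 to 1.84 includes the change of Col4a1. Without pair 4 it was 1.48 and passed (adjusted p = 0.0328). Col4a1 and Col4a2 are neighbours in the genome and are transcribed in opposite directions from a shared start region, so the stretch is shown here. RefSeq places their start sites 21 bases apart on GRCm38.p6, and the 5′ ends of both transcripts overlap there. In the following 30 bases at chr8:11312801-11312830, on the plus strand, which is the strand of Col4a2, capitals run from the start of Col4a2 to the start of Col4a1.
Col4a2 and Col4a1 starts: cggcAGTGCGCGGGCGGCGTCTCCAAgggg

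The stretch holds 1 GC box (GGGCGG, searched on both strands), a motif found in 35.7% of all 32851 promoter windows in the RefSeq table. Those windows are longer, with 250 bases before and 50 after a start site, so the share is not that of stretches of this length.

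Col4a5 encodes a chain of more restricted basement membranes, among them that of the epidermis. Its first probe set had 5.69, 4.45, 7.02 and 3.60 in untreated and 4.92, 0.10, 1.76 and 0.84 in the inflamed samples, and only inflamed replicate 1 was above the ceiling. It was lower in all 4 pairs, with a change of -3.29 ± 0.93 that did not pass (adjusted p = 0.0704). Its second probe set had 6.26, 7.25, 6.51 and 5.59 in untreated samples and -0.15, 0.58, -0.40 and -0.32 in inflamed ones. All 4 untreated values were above the ceiling and all 4 inflamed ones under it, so that it was at least 10.4-fold lower. Its mean of 3.17 put it just under the filter of 3.30. In a fit of all 34945 probe sets naming 1 gene without that filter, which was added after its values were seen, it was called lower (adjusted p = 0.00214), as were 1.30% of probe sets. With all inflamed signals at background, the bound is the only size given on the scale without a pseudocount. With a pseudocount of 16 added to the signals, this second probe set was the brighter of the pair, stood for Col4a5 in the test of genes and passed there (-2.58, adjusted p = 0.00493), while the change of the first was -1.32 on that scale. The call of the second probe set held under each of the 10 alternatives run for it (adjusted p = 0.00055 to 0.0353). These alternatives reuse the same values, with all inflamed ones under the ceiling, and are no separate support.

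Keratinocyte markers were read beside Col4a5. The mean of 6 tested markers was 6.89 to 8.60 in untreated samples and 4.45, 4.76, 2.47 and 2.21 in inflamed replicates 1 to 4. It was lower in all 4 pairs, and 4 of the 6 markers were called lower, beside 3.02% of all genes. Krt15 and Krt2, keratins of basal and upper epidermis, were above the ceiling on 4 of 4 untreated and 0 of 4 inflamed arrays. Both passed the filter through their untreated signals, as did Krt10, with an inflamed mean of 2.70. The other tested markers were still above the ceiling on some inflamed arrays: Krt14 and Trp63 on 4 of 4, Krt5 on 3 and Krt10 on 1. Krt1, which was not tested, was above it on 0 of 4 untreated and 1 of 4 inflamed arrays. Krt14 had an inflamed mean of 6.50 and was higher in pair 2 by 1.45. Whether keratinocyte RNA had a part in the Col4a5 difference was not tested. Col4a5 lies next to Col4a6 in a head-to-head arrangement, with start sites 1343 bases apart in RefSeq. Col4a6 was above the ceiling on 2 of 4 untreated and 0 of 4 inflamed arrays and was not tested. Since a Col4a5 probe set went from well above background to under it, the sequence before its start is given. It runs from chrX:141475169-141475369 on the plus strand of GRCm38.p6, with a CCAAT box (CCAAT, both strands) in capitals. Of all promoter windows, which are longer than this stretch, 37.4% held a CCAAT box.
Col4a5 upstream: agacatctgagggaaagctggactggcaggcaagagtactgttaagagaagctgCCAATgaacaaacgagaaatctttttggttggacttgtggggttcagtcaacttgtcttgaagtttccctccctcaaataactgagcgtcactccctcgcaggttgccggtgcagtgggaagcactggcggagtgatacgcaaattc

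Col4a3 and Col4a4, the other neighbouring pair, were dim and left out by the filter. Col4a3 had 3.40, 2.76, 2.53 and 2.93 in untreated samples, above the ceiling on 2 of 4 arrays, and 0.08 to 1.80 in inflamed ones, above it on 0 of 4. At least 1 of the 3 probe sets of Col4a4 was above the ceiling on 3 of 4 untreated arrays, and none of them on an inflamed one. Neither was tested.

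Col18a1, the source of endostatin, had 8.86, 9.86, 9.19 and 9.73 in the untreated and 6.90, 8.86, 7.70 and 7.68 in the inflamed group. Inflamed replicate 2 was level with untreated replicate 1, and the other inflamed values lay below all untreated ones. The change was -1.62 ± 0.34 (SE; adjusted p = 0.0214), lower in 4 of 4 pairs. The second probe set, at 8.20, 9.33, 9.82 and 9.57 against 8.07, 7.85, 7.12 and 5.37, gave groups that did not overlap and a change of -2.13 ± 0.59 that missed the threshold in the fit of filtered probe sets (adjusted p = 0.0672). The call of Col18a1 was lost without pair 1, without pair 3 and without pair 4 (adjusted p = 0.0803, 0.0797 and 0.0740), with changes of -1.51, -1.67 and -1.48. The keratinocyte marker mean was also lower in inflamed samples, in 4 of 4 pairs. The lymphatic markers Mmrn1 and Reln, with the values above, were lower in 4 of 4 pairs too. Prox1 was lower in 4 of 4 pairs and Pecam1 in 3 of 4 without passing (adjusted p = 0.0618 and 0.188). Pdpn and Cdh5 of the same list were higher in 4 of 4 and 3 of 4 pairs (0.56 ± 0.15 and 0.50 ± 0.20) without passing. The median change of the 8 tested lymphatic markers was -0.55. Of 6 tested blood endothelial markers, only Aqp1 was called (-1.63 ± 0.25, adjusted p = 0.00593, 4 of 4 pairs lower). The median change of these 6 was 0.19. The part of these cell types in the Col18a1 difference was not tested.

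Col8a1 and Col8a2 encode the chains of type 8, a short-chain collagen that forms hexagonal lattices under some endothelia. Col8a1 was bright in every sample, at 12.29, 11.26, 10.61 and 11.27 in untreated and 12.07, 10.91, 10.63 and 11.48 in the inflamed samples. The groups overlapped throughout, and the change of -0.09 ± 0.15 (adjusted p = 0.797) had a 95% interval of -0.42 to 0.25. Its 3 probe sets gave changes of -0.22, -0.20 and -0.09. Col8a2 ranged from 5.80 to 10.17 in untreated and from 6.32 to 10.05 in inflamed samples, with replicate 1 the highest of both groups, and did not pass (-0.79 ± 0.59, adjusted p = 0.489). Col15a1, the other endostatin-type collagen beside Col18a1, had 8.05, 5.15, 4.14 and 7.44 against 6.70, 7.35, 4.81 and 5.79. It was higher in 2 pairs and lower in 2 (-0.04 ± 0.75, adjusted p = 0.984), with an interval of -1.72 to 1.64 that includes the change of Col18a1.

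**Figure D2:**
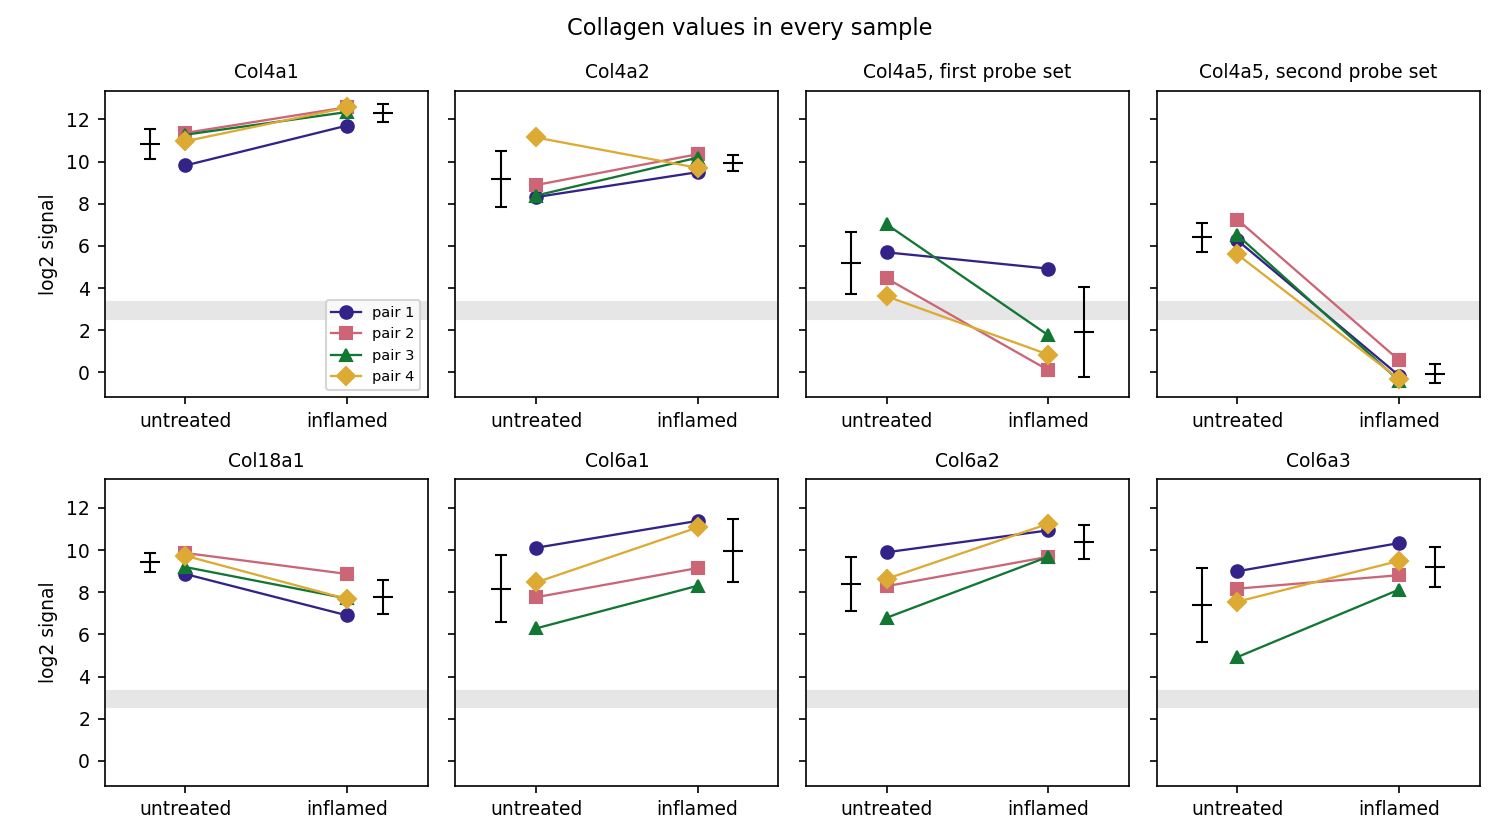
Log2 signal of Col4a1, Col4a2, both Col4a5 probe sets, Col18a1 and the 3 tested beaded genes in every untreated and inflamed sample, with lines joining the 4 pairs, group means ± SD beside them and the range of background ceilings in grey. All 4 lines of Col4a1 and of the type 6 genes rise, those of Col18a1 fall, the second Col4a5 probe set drops to -0.40 to 0.58 in inflamed samples, and pair 4 runs the other way in Col4a2.

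The 3 tested beaded collagens rose together, and all 3 were higher in 4 of 4 pairs. The common type 6 monomer takes 1 chain from each of these genes.

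Col6a1 had 10.11, 7.76, 6.28 and 8.46 in the untreated and 11.39, 9.15, 8.31 and 11.07 in the inflamed group. The groups overlapped because replicate 1 was high and replicate 3 low in both, and within pairs the difference was 1.28 to 2.61. The change was 1.82 ± 0.32 (SE; adjusted p = 0.0105). Col6a2 had 9.90, 8.29, 6.79 and 8.64 against 10.93, 9.68, 9.68 and 11.25, a change of 1.98 ± 0.35 (adjusted p = 0.0112). Its second probe set gave 1.95 and also passed in the fit of filtered probe sets (adjusted p = 0.0203). Col6a3 had 8.99, 8.17, 4.92 and 7.55 against 10.33, 8.81, 8.12 and 9.49, a change of 1.78 ± 0.45 that passed narrowly (adjusted p = 0.0488). The untreated sample of replicate 3 was the lowest of the 8 for all 3 genes.

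The calls of type 6 rest on the pairing. Without the pair as a block 0 of the 3 passed (adjusted p = 0.0685 to 0.225), and with the pair as a random block 1 passed, Col6a2. Without pair 3, the changes were 1.68 for Col6a2 and 1.30 for Col6a3 and neither passed (adjusted p = 0.0529 and 0.137), while Col6a1 did. Col6a3 was also lost on leaving out any other pair (adjusted p = 0.0549 to 0.133) and under quantile or cyclic loess normalization (adjusted p = 0.0619 and 0.0513). Without the filter on dim probe sets it was lost too, with 1 probe set per gene or with every probe set tested (adjusted p = 0.0509 and 0.0532).

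Fibroblast markers other than collagens were read beside these genes. Their mean over 9 tested markers was 8.91, 7.40, 6.43 and 7.54 in untreated and 8.85, 7.91, 7.34 and 8.43 in the inflamed samples, higher in 3 of 4 pairs. Of the 9, only Lum, a small proteoglycan of collagen fibrils, passed (1.49 ± 0.29, adjusted p = 0.0167), while Dcn, another one, did not (0.91 ± 0.30, adjusted p = 0.113). Pdgfra, Dpt and Pi16 had positive changes as well (1.57, 1.04 and 2.74). Thy1 was lower in 4 of 4 pairs (-0.65 ± 0.19, adjusted p = 0.0757), and Mfap4, Cd248 and Fbln1 also had negative changes (-0.93, -0.84 and -0.27). The part of fibroblast RNA in the rise of type 6 was not tested. The remaining beaded genes were dim: Col6a5 was above the ceiling on 1 of 4 untreated and 0 of 4 inflamed arrays.

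Because the 3 genes moved together, the sequences before their starts are shown, 5′ to 3′ on the minus strand of GRCm38.p6, at chr10:76726045-76726294 for Col6a1, chr10:76623631-76623880 for Col6a2 and chr1:90844002-90844221 for Col6a3. Capitals mark a match to an AP-1 site (TGANTCA), a GC box (GGGCGG) or an NF-kB site, searched on both strands with CCAAT and TATAAA, and no matches overlapped each other.
Col6a1 upstream: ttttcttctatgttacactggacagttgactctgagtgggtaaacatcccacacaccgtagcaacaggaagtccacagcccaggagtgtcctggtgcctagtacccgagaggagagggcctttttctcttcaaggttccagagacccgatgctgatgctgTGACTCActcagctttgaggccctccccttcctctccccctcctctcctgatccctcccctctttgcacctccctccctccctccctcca
Col6a2 upstream: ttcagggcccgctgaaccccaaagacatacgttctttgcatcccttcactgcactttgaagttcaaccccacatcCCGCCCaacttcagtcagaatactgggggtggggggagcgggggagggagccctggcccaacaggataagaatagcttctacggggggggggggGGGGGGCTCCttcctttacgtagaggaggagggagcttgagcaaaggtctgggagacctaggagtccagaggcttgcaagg
Col6a3 upstream: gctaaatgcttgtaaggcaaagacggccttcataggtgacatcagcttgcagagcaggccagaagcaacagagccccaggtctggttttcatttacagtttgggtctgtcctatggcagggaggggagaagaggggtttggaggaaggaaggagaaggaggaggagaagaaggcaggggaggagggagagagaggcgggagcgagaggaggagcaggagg

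The stretches differed in their matches. Col6a1 held 1 AP-1 match, Col6a2 1 GC box and 1 NF-kB match, and Col6a3 none of the 5 motifs. Over all promoter windows, which are longer than these stretches, 7.8% held an AP-1 match and 8.5% an NF-kB match. Of the 36 windows found for 33 of the 42 collagen genes, 1 held an AP-1 match, 7 an NF-kB match, 22 a GC box, 13 a CCAAT box and 5 a TATA box (TATAAA, in 13.6% of all windows).

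Fibrillar collagens were measured in both groups and none was called. Of 9 tested genes, 0 rose and 0 fell, with a median change of 0.24 and a range of -0.42 to 1.44. For all 9 the change was smaller than the range over the 4 untreated samples, a comparison not made over all genes.

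The genes of type 1 and type 3, the bulk of dermal fibres, were bright throughout. Col1a1 had 11.63, 11.18, 9.49 and 11.35 in the untreated and 11.66, 11.10, 10.50 and 11.08 in the inflamed group. Col1a2 had 12.35, 12.04, 10.81 and 12.00 against 12.44, 12.04, 11.53 and 12.13. Col3a1 had 11.85, 11.27, 10.05 and 11.12 against 12.12, 10.97, 11.01 and 11.32. In each, untreated replicate 3 stood below the other 7 samples, and those 7 overlapped. The 95% intervals of the changes were -0.32 to 0.67 for Col1a1, -0.08 to 0.56 for Col1a2 and -0.16 to 0.74 for Col3a1 (adjusted p = 0.699, 0.373 and 0.455). These intervals lie below the changes of the 3 type 6 genes, but the difference between the classes was not tested. Under quantile and cyclic loess normalization the small changes of Col1a1 and Col1a2 turned negative.

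Type 5 chains nucleate type 1 fibres. Col5a1 was at 7.99 ± 1.30 in untreated and 8.38 ± 0.98 in inflamed samples (SD, n = 4), and Col5a3 at 3.57 ± 2.44 and 5.01 ± 0.75. Col5a2 had 9.08, 7.78, 6.39 and 7.76 against 9.27, 7.98, 8.86 and 8.55. It was higher in 4 of 4 pairs, by 0.18, 0.20, 2.47 and 0.79, and the change of 0.91 ± 0.46 missed the threshold (adjusted p = 0.290). The size of its mean change came mostly from pair 3. The same holds for Col5a3, whose pair 3 difference was 5.63 and whose untreated replicate 3 was under background at -0.09.

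Col2a1, Col11a1 and Col11a2 encode the fibrils of cartilage, and the ears were torn open along their cartilage before digestion. Col2a1 had 9.95, 10.05, 8.30 and 10.35 in untreated and 9.71, 9.36, 8.12 and 11.36 in the inflamed samples, a change of -0.03 ± 0.31 (adjusted p = 0.973). Col11a1 lay between 6.07 and 8.22 in all samples (0.24 ± 0.47, adjusted p = 0.823). Col11a2 had 5.01, 2.90, 2.60 and 4.90 against 5.91, 1.77, 1.20 and 4.87. Replicates 1 and 4 were high and 2 and 3 low for Col11a2 in both groups. Untreated replicate 3 and inflamed replicates 2 and 3 of Col11a2 were under the ceiling. Replicates 1 and 4 also stood above 2 and 3 in the chondrocyte markers other than collagens. Their mean was 9.48, 7.05, 7.02 and 8.96 in the untreated and 9.22, 6.64, 6.09 and 8.74 in the inflamed group. Col2a1 broke this order in untreated samples, with replicate 2 above 1, and Col11a1 in inflamed ones, with replicate 2 at 7.67 and 1 at 7.54. Replicates 1 and 4 came from mice of 9 and 10 weeks, and 2 and 3 from mice of 8 weeks. Age and sort day cannot be told apart here, and the part of cartilage cells was not tested.

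**Figure D3:**
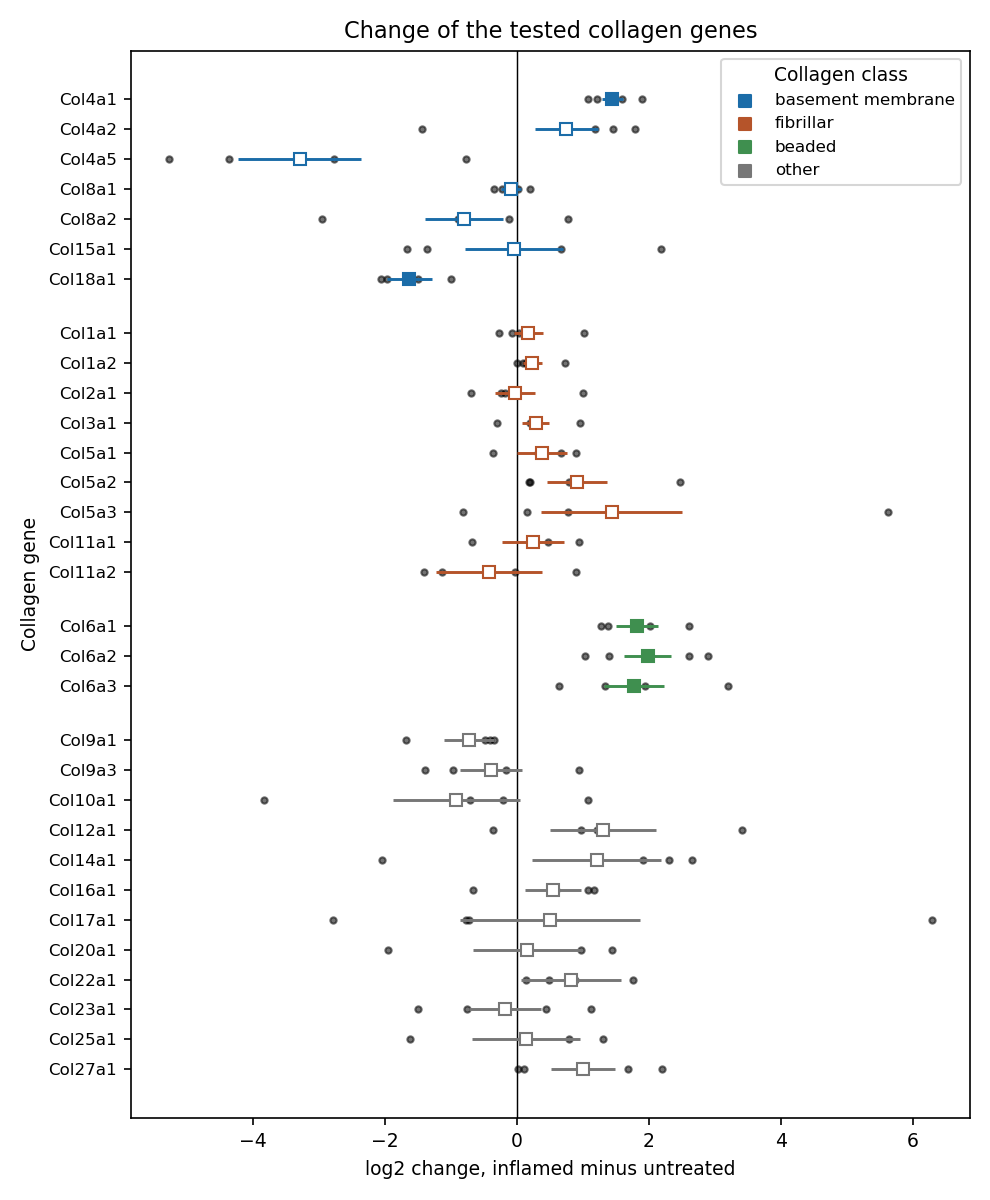
Change in log2 signal (inflamed minus untreated) of the 31 tested collagen genes, grouped by class: squares are means over 4 pairs with bars of 1 SE, filled where the gene passed the test, and black points are the 4 single pairs. The 3 beaded genes and Col4a1 have all points to the right of 0 and Col18a1 all points to the left, while the fibrillar squares lie between -0.42 and 1.44 with open symbols.

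The other types gave no call either: of 12 tested genes, 0 rose and 0 fell. All 12 changes were smaller than the untreated range, a comparison not made over all genes. Their median change was 0.33.

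Types 9 and 27 accompany cartilage fibrils. Col9a1 had 10.04, 8.35, 7.42 and 8.90 in untreated and 9.63, 7.87, 5.74 and 8.56 in the inflamed samples, lower in 4 of 4 pairs by 0.34 to 1.68 without passing (adjusted p = 0.306). Col9a3 had 9.25, 6.11, 6.92 and 10.32 against 9.09, 7.06, 5.54 and 9.35. Its replicates 1 and 4 stood above 2 and 3 in both groups, as with Col11a2. Col27a1, a fibril-forming type of cartilage that the classes used here count among the others, had 9.89, 6.12, 5.77 and 8.17 against 10.00, 8.32, 7.45 and 8.19. It was higher in 4 of 4 pairs, by 0.10, 2.20, 1.68 and 0.02, and did not pass (1.00 ± 0.48, adjusted p = 0.264). Col9a2 was above the ceiling on 2 of 4 untreated and 4 of 4 inflamed arrays and was not tested, and Col10a1, the collagen of hypertrophic cartilage, was above it on 3 and 1.

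Types 12, 14 and 16 sit on the surface of fibrils and link them to other matrix. Col16a1 had 8.99, 7.21, 6.43 and 8.83 in the untreated and 9.58, 8.38, 7.50 and 8.17 in the inflamed group (0.54 ± 0.42, adjusted p = 0.507). Col12a1 was at 0.61 in untreated replicate 3 and between 3.88 and 6.71 in all other samples (1.31 ± 0.80, adjusted p = 0.392). Col14a1 was at 1.81 to 3.77 in untreated samples and at 5.57, 5.67, -0.22 and 5.26 in inflamed ones. Inflamed replicate 3 thus lay below all other samples of Col14a1, and the change of 1.21 ± 0.98 did not pass (adjusted p = 0.527).

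Transmembrane and anchoring types were mostly dim. Col23a1, a transmembrane collagen, was the exception, and its 3 probe sets differed. The one standing for the gene had 7.08, 6.82, 7.71 and 7.78 against 7.52, 7.94, 6.95 and 6.28, a change of -0.17 ± 0.55. The others were lower in 4 of 4 pairs, at 8.70, 7.38, 7.68 and 7.77 against 4.65, 6.69, 7.41 and 3.39, and at 7.90, 7.53, 7.97 and 7.61 against 6.46, 7.02, 7.27 and 5.35. Their changes of -2.35 and -1.23 did not pass in the fit of filtered probe sets (adjusted p = 0.115 and 0.194). Which transcripts each probe set reads was not analysed here.

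Col7a1, the anchoring fibril of the epidermal junction, was above the ceiling on 4 of 4 untreated arrays (3.42 to 4.36) and on 1 of 4 inflamed ones, and was left out by the filter with a mean of 3.11. Col17a1, a keratinocyte hemidesmosome collagen, was scattered from -0.15 to 6.38 in untreated and from 1.20 to 6.13 in inflamed samples (adjusted p = 0.879). Col13a1, transmembrane like Col23a1, was above the ceiling on 2 of 4 untreated and 0 of 4 inflamed arrays and was not tested. Col25a1 had 6.84, 0.02, 3.18 and 4.56 against 7.63, 1.33, 1.57 and 4.64, so that its values followed the replicate number and not the group. Col20a1 and Col22a1 lay between 1.79 and 5.74 in all samples, and their changes of 0.16 and 0.82 did not pass.

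**Figure D4:**
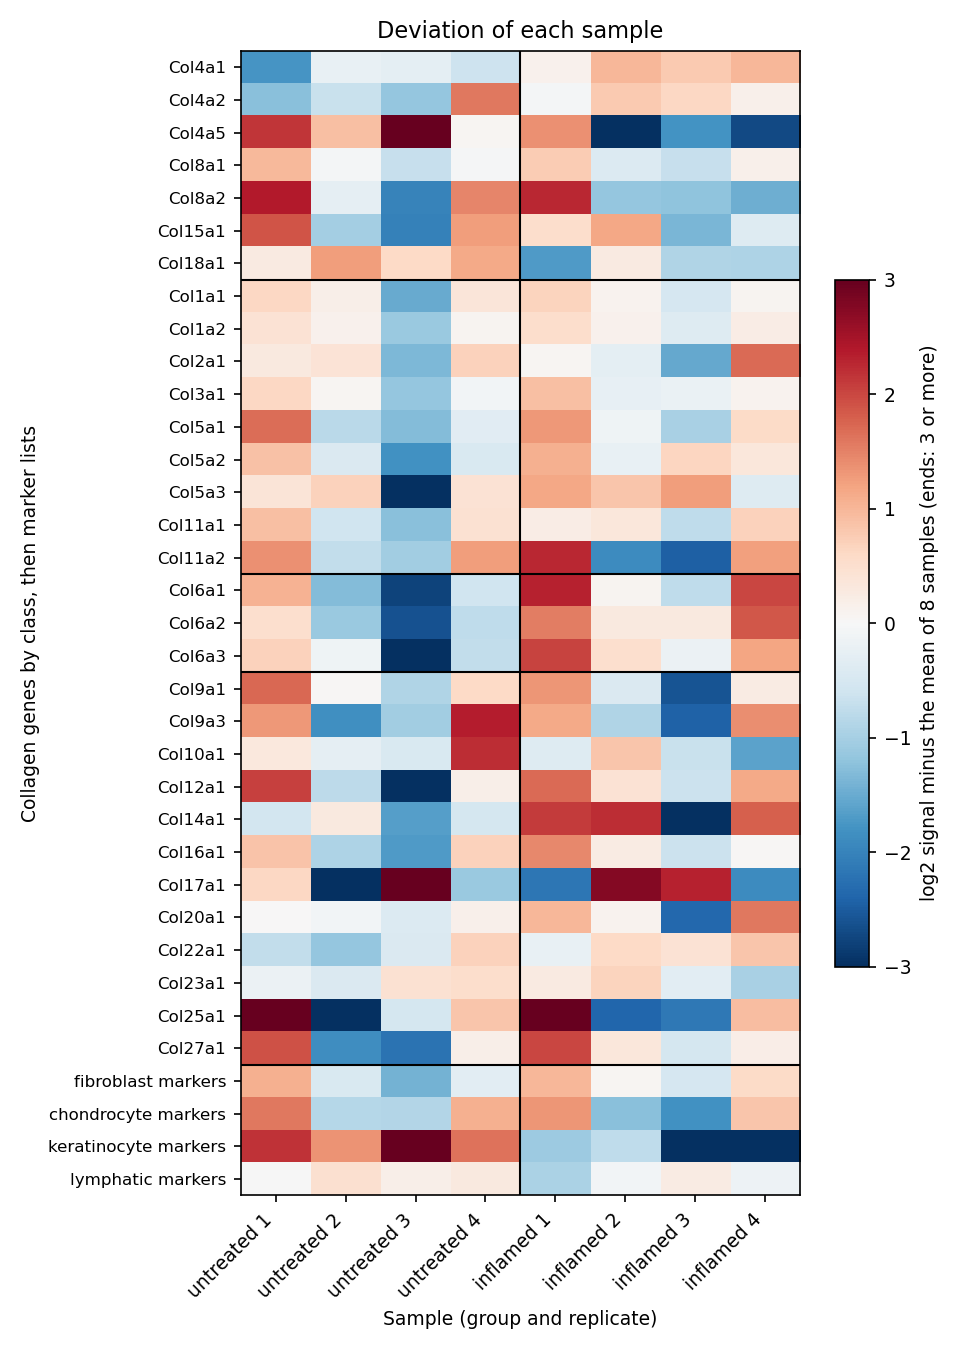
Deviation of each sample's log2 signal from the mean of the 8 samples for the 31 tested collagen genes, grouped by class, and for the mean of 4 marker lists, with red above and blue below the mean and the colour scale ending at 3. Untreated replicate 3 is blue for every fibrillar and beaded gene, and the keratinocyte row turns from red in untreated to blue in inflamed samples.

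For 30 of the 31 tested collagen genes the change was smaller than the range over the 4 untreated samples, Col18a1 being the exception. That range includes differences between pairs, and the 30 include Col4a1 and the 3 called beaded genes. The share of all genes for which this holds was not computed. Untreated replicate 3 was the lowest untreated sample for 9 of 9 fibrillar, 3 of 3 beaded, 7 of 12 other and 3 of 7 basement membrane genes. Untreated replicate 1 was the highest for 7 of 9 fibrillar and 3 of 3 beaded genes. The fibroblast marker mean had the same extremes, 8.91 in untreated replicate 1 and 6.43 in replicate 3. Col4a1 stood apart from this order, with its lowest value in replicate 1 of each group. Within pairs, the deviations of untreated and inflamed samples from their group means over the 31 collagen genes correlated at 0.58, 0.14, 0.36 and 0.20 for pairs 1 to 4, against 0.16, -0.0012, 0.08 and 0.03 over all genes. These describe genes within shared sort days, and genes are not independent replicates.

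Among genes that make and handle collagen, 1 was called. Of 31 genes for hydroxylases, chaperones, processing proteases and cross-linking enzymes, 25 were tested, 1 rose and 0 fell, where 3.91% of all genes were called higher, so the count is near the background. The median change of the list was 0.59. The 1 that rose was Loxl4, a lysyl oxidase that starts cross-links, with 8.60, 6.50, 6.41 and 6.31 in untreated and 10.21, 9.97, 8.59 and 9.85 in the inflamed samples. Its change was 2.70 ± 0.43 (SE; adjusted p = 0.00711), higher in 4 of 4 pairs. Plod3, a lysyl hydroxylase, was higher in all 4 pairs without overlap of the groups, at 6.74 to 7.70 against 7.94 to 9.22, and missed the threshold (adjusted p = 0.0987). Tll1, a procollagen-processing protease, was lower in 4 of 4 pairs, at 6.99 to 7.67 against 4.76 to 6.39, and did not pass either (adjusted p = 0.0837). Lox, another lysyl oxidase, went from 4.77 ± 0.60 to 6.76 ± 1.07 (SD, n = 4; adjusted p = 0.114). Serpinh1, the collagen chaperone HSP47, was at 9.78 ± 0.86 and 10.36 ± 0.45 and missed the threshold (adjusted p = 0.179).

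Of 10 genes for collagen breakdown and uptake, 6 were tested and 0 passed, with a median change of -0.25. Mmp2 and Mmp14, which cleave collagen outside the cell and at its surface, had changes of -0.14 ± 0.31 and 0.63 ± 0.43. Mmp13, a collagenase of fibrillar collagens, had 0.70, 0.16, -0.71 and 0.55 in the untreated and 8.12, 4.71, 3.65 and 7.85 in the inflamed group. It was above the ceiling on 0 of 4 untreated and 4 of 4 inflamed arrays, at least 8.68-fold higher. Its mean fell under the filter, and it was called only in fits without it or with a pseudocount (adjusted p = 0.00695 in the fit of all probe sets without the filter). Of 9 collagen receptor genes 5 were tested and 0 passed, among them the integrin subunit Itgb1 (-0.12 ± 0.26) and the discoidin receptors Ddr1 (0.41 ± 0.27) and Ddr2 (2.38 ± 1.03, adjusted p = 0.213).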

How the data were processed

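Total RNA of sorted cells was amplified isothermally into single-stranded cDNA, labelled with biotin and hybridised, per the labels' protocols. The deposited table holds 1 linear intensity per probe set and array, a MAS5 signal per the submitters' processing notes; the sources used here give no version, scaling target or detection calls. Of 45101 probe sets, 64 were controls, 932 named several genes, 34945 named 1 gene, and 34741 of these had their gene ID in RefSeq's GRCm38.p6 table. Array medians of log2 intensity differed by at most 0.468, under a set limit of 0.5, so the scaling was kept, with no pseudocount. The difference followed the group: all inflamed medians (3.27 to 3.44) lay below all untreated ones (3.56 to 3.74).

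Probe sets under the median mean log2 signal were left out and the brightest represented each gene (10843 genes). Limma 3.58.1 in R 4.3.3 was fitted with an intensity trend and the pair as a fixed block, with 3 residual degrees of freedom. Pairs share a sort and extraction day, per the study description; over all genes the deviations of same-numbered samples correlated above 0.1 in pair 1 only; samples are pools, so p-values refer to pools. The fit was tested on simulated data. Ceilings are 95th percentiles of 27 bacterial control probe sets. The number of arrays limits the precision.

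All 42 genes are accounted for. Every sample value is given for collagen genes past the threshold, at least 2 bright tested genes of each class, Col4a2 and Col4a5. Of the untested Col4 genes, Col4a3 has its untreated values and an inflamed range. Col4a4 and Col4a6 are given only by the arrays above the ceiling. From each list, genes past the threshold were named, and others were chosen after their values were seen. Members and lists were chosen with earlier results of these data known. Protein features planned for the collagens could not be computed and are not used here.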

Additional observations from a re-analysis of the deposited data

Results flagged for a closer look

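In 3 of 62 groups of 4 samples (31 tested collagen genes in 2 groups), 1 sample stood apart by Dixon's test at the 95% level. Chance alone flags about 1 in 20 groups. Col8a2 was at 10.05 in inflamed replicate 1 and at 6.32 to 6.64 in the other inflamed samples. Col5a3 was at -0.086 in untreated replicate 3, under background, and at 4.69 to 4.97 in the other untreated samples. Col14a1, by its brightest probe set, was at -0.22 in inflamed replicate 3, under background, and at 5.26 to 5.67 in the other inflamed samples.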

How the results depend on the processing

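Arrays, not depth, limit precision here, and signals under the ceiling have no order. Against 424 higher and 328 lower genes, median centring gave 719 higher. It shifted the median over all tested genes to 0.22 (main -0.09), and 76.0% of calls were then higher (main 56.4%). Without the intensity trend 94 and 47 were called. Testing every probe set by itself gave 508 lower calls of 19626 tested, a share of 2.59% beside 3.02% of genes; counts under the settings with every probe set are of probe sets. Leaving out 1 pair gave 208 to 306 higher and 126 to 198 lower calls.

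Without the replicate block, 1 collagen gene was higher (0 beaded), and with a random replicate block 2 were (1 beaded). The calls of Col4a1 and Col18a1 held under both. Without the trend 0 collagen genes were higher and 0 lower (basement membrane 0 and 0, beaded 0), and 0 synthesis genes were higher. With the pseudocount, and with every probe set tested by itself without the filter (an alternative chosen after seeing the data), 2 collagen genes were lower, both 2 of basement membrane type.

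Leaving out 1 pair gave 2 to 4 collagen genes higher and 0 to 1 lower, 1 to 2 basement membrane genes higher and 0 to 1 lower, and 1 to 2 beaded genes higher. Synthesis genes higher were 3 with median centring, 3 with every probe set by itself, 2 with the mean over probe sets (1 lower) and 2 with every probe set and no filter. Breakdown genes higher were 1 with the pseudocount, 1 without the filter and 1 with every probe set and no filter. Over all counts, 246 stayed within 1.5 times of the main value and 42 did not.

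Changes that took the other sign were called under no setting. With median centring these were Col8a1 at 0.22, Col15a1 at 0.26, Col2a1 at 0.28 and Col23a1 at 0.13. Quantile normalization gave 0.093 for Col15a1, -0.035 for Col1a1 and -0.018 for Col1a2, and cyclic loess 0.13, -0.064 and -0.073. With the pseudocount Col11a2 was at 0.024. Leaving out 1 pair gave -0.18 to 0.0026 for Col8a1, -0.78 to 0.50 for Col15a1, -0.10 to 0.33 for Col1a1, -0.37 to 0.19 for Col2a1, -1.58 to 0.058 for Col10a1, -1.42 to 1.60 for Col17a1, -0.26 to 0.87 for Col20a1, -0.60 to 0.27 for Col23a1 and -0.25 to 0.73 for Col25a1. The cause was not tested.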
